A study of Solanum lycopersicum with 18 samples.

Results

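Glutathione S-transferases of tomato leaf were followed through the first hours of NaCl treatment. The family was taken as the genes whose deposited protein description names a glutathione S-transferase or glutathione transferase and whose FPKM (a level in sequenced fragments, corrected for transcript length and for the size of the library) reached 1 in at least 3 of the 18 libraries. The description matched 52 of the 23808 genes in the table, and 39 of the 52 met the level rule. The other 13 stayed at or below 0.64 FPKM in each library, and none reached 1 FPKM in any. Just inside the rule stood LOC101266443, with a highest value of 1.22 FPKM, and LOC101252525, with 1.35 FPKM, each at 1 FPKM or more in 4 libraries. Just outside it stood LOC101245775, with a highest value of 0.64 FPKM.

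RNA came from leaves of soil-grown tomato (Solanum lycopersicum) of 2 materials, labelled Micro-TOM-EX and Micro-TOM. Micro-TOM is a dwarf laboratory cultivar. Neither the nature of Micro-TOM-EX nor the salt dose was given in the sources used here. Each material was sampled before NaCl (0 h) and 2 and 8 h into the treatment, with 3 libraries for each hour, named below by material, hour and number (EX2r1 is the first Micro-TOM-EX library of 2 h, MT2r1 its Micro-TOM counterpart). Leaves kept without salt for 2 or 8 h are not part of the data analysed here, so salt and time of day cannot be told apart in any comparison of hours. No label ties the 3 libraries of a group to separate plants, and the p-values therefore measure only the spread between these samples.

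Glutathione S-transferases join the tripeptide glutathione to reactive or foreign molecules, which plant cells then move into the vacuole, and several also reduce organic peroxides with glutathione. The family falls into classes. Tau and phi enzymes are the plant-rich classes that conjugate herbicides and stress products, zeta enzymes act in tyrosine breakdown, theta enzymes reduce hydroperoxides, lambda enzymes carry a catalytic cysteine and do not conjugate, and the microsomal enzymes are unrelated membrane proteins with the same activity. Many tau genes lie side by side on plant chromosomes as tandem copies, and many are induced by auxin, salicylic acid, oxidants or salt.

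The deposited descriptions gave a class for 14 of the 39 genes. There were 4 tau genes (LOC101255298, LOC101250402, LOC101264661 and LOC101266488), 2 zeta genes (LOC101248052 and LOC101252525), 2 lambda genes (LOC101253845 and LOC101262552), 1 phi gene (LOC101265881) and 1 microsomal gene (LOC101263072). A theta letter stood in 4 names, of which 3 were T1 genes (LOC101265520, LOC101261142 and LOC101260846) and the other was GST-T4, where the letter may belong to the name and not to a class. The other 25 were named without a class, mostly as probable glutathione S-transferase.

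Of the 39 genes, 19 sat in 2 tandem runs, with genes joined into a run where the gap between neighbours was at most 50 kb. Coordinates are those of the authors' table (the sources used here give no genome build). The first run spanned 31.6 kb of chromosome 7, from 64278686 to 64310276. It held 9 matching genes, of which 8 met the level rule. The second spanned 95.7 kb of chromosome 9, from 4810020 to 4905766, with 14 matching genes and 11 that met the rule. The remaining 20 genes lay elsewhere, some of them in pairs on chromosomes 5, 6 and 8. Genes of near-identical sequence can share reads, and the counting rule was not given, so levels within a run are less certain than those of single genes. On chromosome 7 the model of LOC543836 (64278686 to 64289332, plus strand) also overlaps those of LOC101245473 and LOC101244886 on the same strand, so reads of these 3 may have been counted for one another.

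Depth, inferred from the steps between low FPKM values, was 18.55 to 20.05 M (mega) fragments per library. At that depth 1 FPKM on a transcript of 1 kb stood for about 15.8 to 17 fragments, so values below 0.1 FPKM on such a transcript rest on 1 or 2 fragments. Correlations of log2 values were 0.965 to 0.993 within groups, 0.95 to 0.983 between the materials at 1 hour and 0.667 to 0.832 between hours. Leaf tissue was checked with 29 genes of the Rubisco small subunit and chlorophyll a-b binding proteins. Their summed level was 43768 to 46445 FPKM at 0 h, 12048 to 32166 at 2 h and 6994 to 16937 at 8 h in Micro-TOM-EX, and 30127 to 44170, 10778 to 17631 and 6793 to 18680 FPKM at the same hours in Micro-TOM. In leaf pieces, fewer cells of a type and less RNA per cell cannot be told apart.

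The family's total level was higher at both later hours. Summed over the 39 genes, it was 1361 ± 25.3 FPKM at 0 h, 2857 ± 130 at 2 h and 3240 ± 508 at 8 h in Micro-TOM-EX, and 1218 ± 39.3, 2744 ± 331 and 2825 ± 87.0 FPKM at the same hours in Micro-TOM (SD, n = 3). No library of 2 h or 8 h overlapped those of 0 h, and EX8r3 was the highest of all at 3797 FPKM. The gene that led the sum at 0 h was the tau gene LOC101255298, with 16.6% to 21.8% of the sum. At 2 h it was LOC101256384, a gene of no stated class, with 35.9% to 38.4%, and at 8 h LOC101256384 again led in all libraries except EX8r1, where LOC543836 led. In 23 genes all 18 libraries reached 1 FPKM, while 9 genes had no library of 0 h at that level and 2 reached it at 0 h alone.

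**Figure D1:**
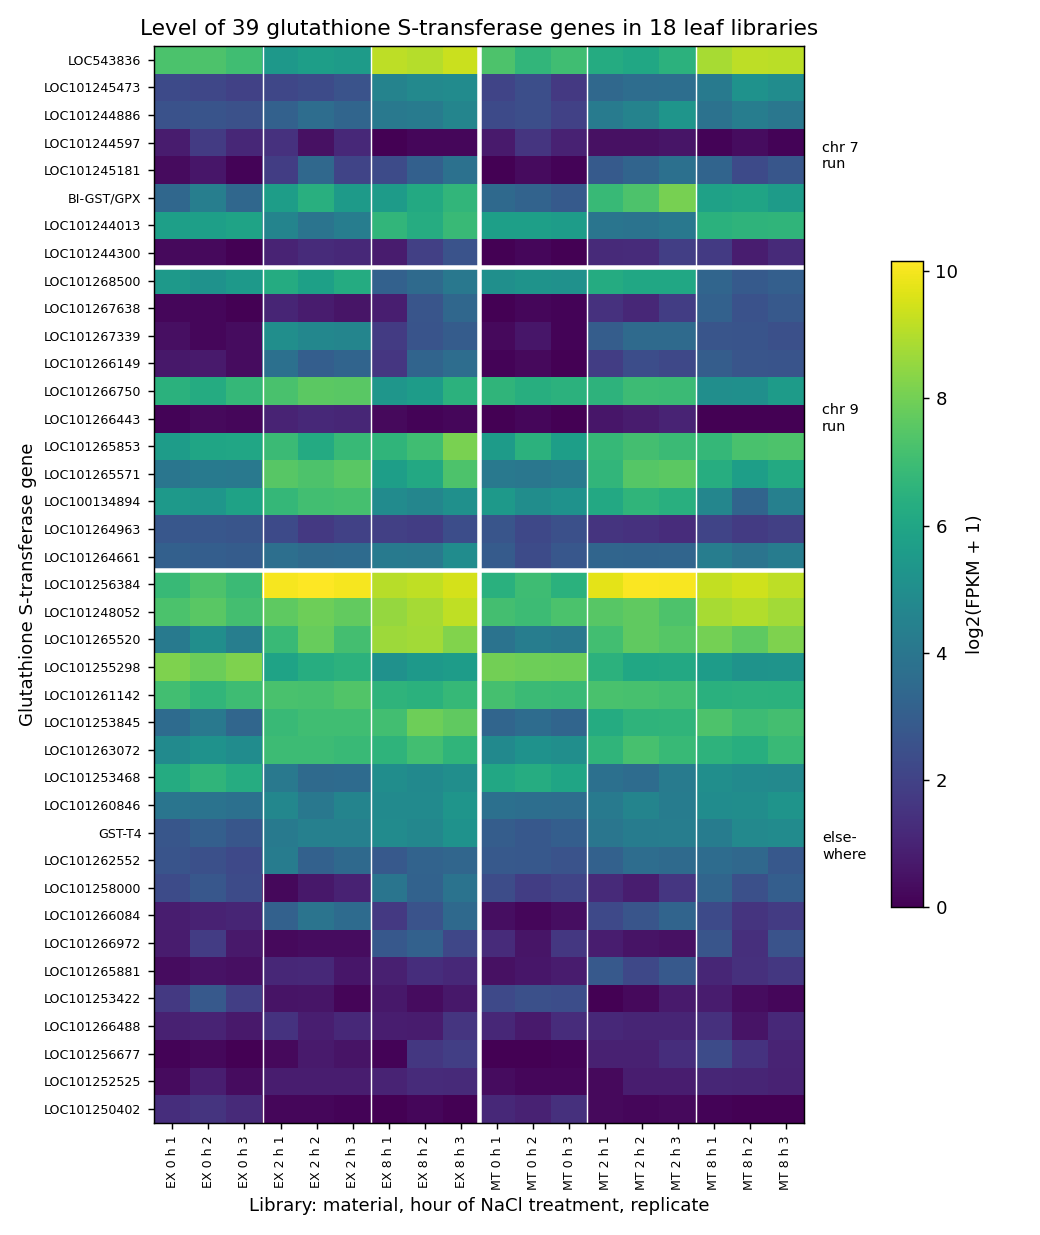
Heat map of the 39 glutathione S-transferase genes (rows) in the 18 libraries (columns, Micro-TOM-EX left of Micro-TOM, by hour within each), coloured by log2(FPKM + 1) with yellow for the highest values. LOC101256384 is the brightest row at 2 h, and LOC101255298 is the brightest at 0 h.

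Most of the family was higher at 2 h than at 0 h. In Micro-TOM-EX 24 of the 39 genes rose, 8 fell and 7 did not pass the test, against 26.7% higher and 49.2% lower among the 18402 genes tested. In Micro-TOM 25 rose, 8 fell and 6 did not pass, against 27.5% higher and 47.5% lower. The 9 genes with no library of 0 h at 1 FPKM met the level rule only through later hours, so a rise in them was favoured in advance. The same holds for a fall in the 2 genes that reached 1 FPKM at 0 h alone, LOC101250402 and LOC101253422. The counts and medians at 2 h and 8 h include these genes. Genes were tested with limma on log2(FPKM + 1), with p-values adjusted by Benjamini and Hochberg over all genes tested and 0.05 as the threshold. The median log2 change of the family was 0.68 in Micro-TOM-EX and 0.97 in Micro-TOM, against -0.36 and -0.31 over all genes. Rescaling the libraries by median ratios brought the medians of all genes to -0.02 and -0.03, and gave 26 higher and 8 lower family members in Micro-TOM-EX (36.1% and 37.5% of all genes), and 28 higher and 7 lower in Micro-TOM (35.6% and 36.8%).

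At 8 h against 0 h, 27 genes rose and 10 fell in Micro-TOM-EX, against 35.5% higher and 35.8% lower of all genes tested, and 26 rose and 10 fell in Micro-TOM, against 37.0% and 33.6%. The median log2 changes were 1.37 and 1.19, against -0.004 and 0.04 over all genes. Both hours were set against the same 0 h libraries, so the counts at 2 h and 8 h are not independent. The pattern of calls at 2 h and 8 h was the same in both materials for 33 of the 39 genes, and no gene was called in opposite directions in the materials. The highest mean fell at 2 h in both materials for 12 genes, at 8 h for 15 and at 0 h for 6. The share of all genes was not counted for these patterns. Over all genes tested, libraries of the 2 materials correlated at 0.95 to 0.983 at the same hour, so this likeness is not shown to be particular to the family.

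LOC101256384 (chromosome 6, 2965674 to 2967507) had the highest mean level of the family. In Micro-TOM-EX it stood at 113, 157 and 121 FPKM at 0 h, at 1047, 1138 and 1038 at 2 h and at 536, 583 and 732 at 8 h. In Micro-TOM it stood at 85.5, 126 and 89.5 FPKM at 0 h, at 848, 1089 and 1054 at 2 h and at 589, 688 and 557 at 8 h. In both materials every 2 h library was above every 8 h library, and every 8 h library above every 0 h library. The mean of 2 h was 8.25 times that of 0 h in Micro-TOM-EX and 9.93 times in Micro-TOM, with log2 changes of 3.05 ± 0.17 and 3.31 ± 0.17 (SE, limma adjusted p = 4.4e-10 and 2e-10). At 8 h against 2 h it fell by 0.81 in Micro-TOM-EX (adjusted p = 0.00062) and by 0.70 in Micro-TOM (0.002) on the log2 scale. Its neighbour LOC101256677, on the same strand at 2975600 to 2977552, reached at most 3.99 FPKM.

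Theta genes did not move as one. LOC101265520 (T1, chromosome 12, 62207906 to 62210375) stood at 16.5, 31.6 and 19.0 FPKM at 0 h in Micro-TOM-EX, at 116, 221 and 139 at 2 h and at 408, 434 and 300 at 8 h. In Micro-TOM it stood at 13.7, 18.8 and 16.4 FPKM at 0 h, at 135, 205 and 177 at 2 h and at 259, 197 and 290 at 8 h. It had the largest log2 rise of the family at 8 h, 4.07 ± 0.26 in Micro-TOM-EX and 3.84 ± 0.26 in Micro-TOM (limma adjusted p = 1.5e-09 and 2.8e-09). The paired T1 genes of chromosome 8, at 64066694 to 64070733 and 64071432 to 64075035 on the minus strand, went separate ways at 8 h. LOC101260846 rose in both materials (log2 1.14 in Micro-TOM-EX, 1.4 in Micro-TOM), whereas LOC101261142 fell in Micro-TOM by 0.51 (adjusted p = 0.0011). In Micro-TOM-EX the log2 change of LOC101261142 at 8 h was -0.31, a call (adjusted p = 0.029) lost after rescaling (0.1) and without EX0r1 (0.13), EX0r3 (0.093), EX8r1 (0.069) or EX8r2 (0.13). GST-T4, at 5.64 to 7.5 FPKM at 0 h in Micro-TOM-EX and 6.03 to 7.14 FPKM in Micro-TOM, rose at both hours in both materials, to at most 34.9 FPKM.

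The zeta gene LOC101248052 (chromosome 1, 91405656 to 91410755), whose class acts as maleylacetoacetate isomerase in tyrosine breakdown, was the second most abundant gene of the family by mean. It stood at 152, 187 and 139 FPKM at 0 h, at 199, 241 and 207 at 2 h and at 374, 440 and 576 at 8 h in Micro-TOM-EX, and at 137, 125 and 153 FPKM, 183, 201 and 159, and 451, 504 and 430 at the same hours in Micro-TOM. All libraries of 8 h were above all of 2 h. Its log2 rise at 8 h was 1.52 ± 0.16 in Micro-TOM-EX and 1.73 ± 0.16 in Micro-TOM (limma adjusted p = 3.6e-07 and 8e-08). The smaller 2 h changes (0.44, adjusted p = 0.02 and 0.38, 0.038) lost their calls without EX0r1 (0.056), EX0r3 (0.09) or EX2r2 (0.083) in Micro-TOM-EX and without MT0r1 (0.074), MT0r2 (0.12), MT2r1 (0.081) or MT2r2 (0.14) in Micro-TOM.

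The lambda gene LOC101253845 (L3, chromosome 10, 63957098 to 63959841) stood at 10.6, 16.4 and 9.15 FPKM at 0 h, at 115, 132 and 130 at 2 h and at 136, 239 and 206 at 8 h in Micro-TOM-EX. In Micro-TOM it stood at 9.05, 11.2 and 8.87 FPKM at 0 h, at 75.9, 97.1 and 99.1 at 2 h and at 157, 124 and 136 at 8 h. The treated libraries did not overlap those of 0 h, and the log2 changes were 3.32 and 3.90 ± 0.21 at 2 h and 8 h in Micro-TOM-EX, and 3.10 and 3.71 ± 0.21 in Micro-TOM (limma adjusted p of 2.5e-09 or less). The microsomal gene LOC101263072 (chromosome 2), a membrane enzyme, rose early and stayed up. It was at 28.4, 35.3 and 29.4 FPKM at 0 h, 124, 124 and 118 at 2 h and 94.99, 135 and 98.3 at 8 h in Micro-TOM-EX, and at 27.4, 35.5 and 31.4 FPKM, 99.1, 145 and 112, and 93.8, 81.1 and 118 in Micro-TOM. Its log2 rise at 2 h was 1.95 ± 0.17 in Micro-TOM-EX and 1.88 ± 0.17 in Micro-TOM (adjusted p = 4e-08 and 6.7e-08), and the 8 h libraries overlapped those of 2 h in both materials.

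**Figure D2:**
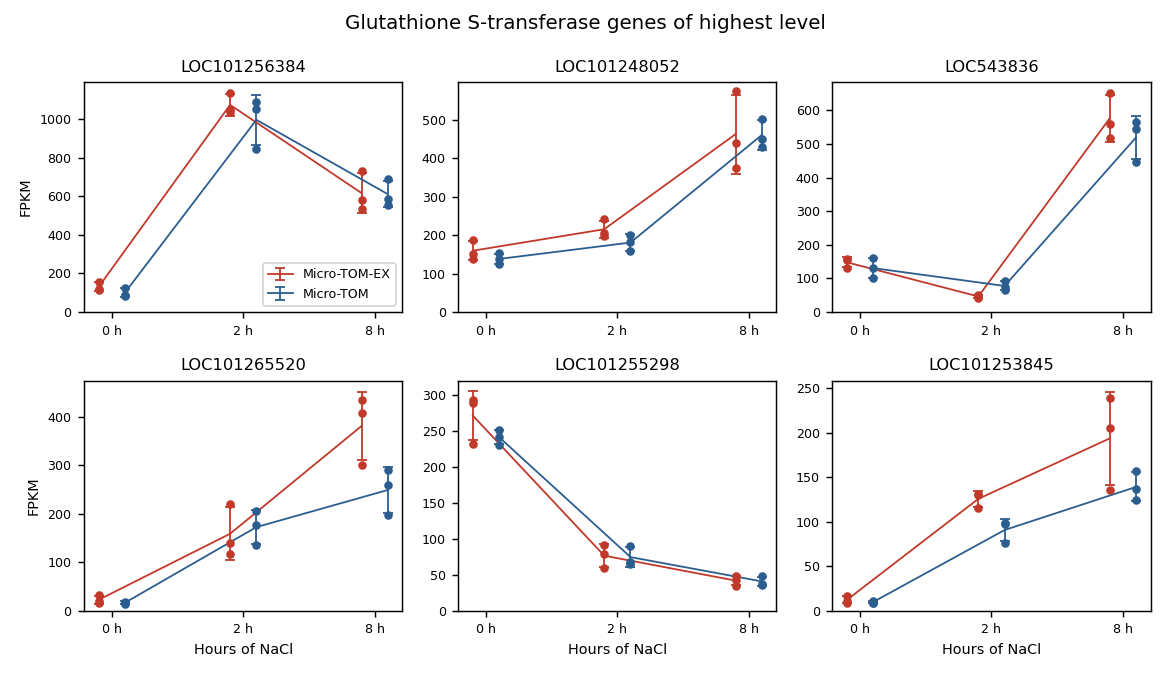
FPKM at 0, 2 and 8 h of NaCl (evenly spaced, not to scale in time) of the 5 genes with the highest mean and of LOC101253845. Points are libraries, lines join group means and bars are SD (n = 3), in red for Micro-TOM-EX and blue for Micro-TOM. LOC101256384 peaks at 2 h, LOC543836 dips at 2 h and is highest at 8 h, and LOC101255298 is lower at both later hours.

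On the log2(FPKM + 1) scale, which shrinks changes of low genes, the largest fall at 8 h was that of a tau gene. LOC101255298 and LOC101250402 lie side by side on chromosome 5 (1379099 to 1380957 and 1381583 to 1382810, plus strand), and both are named U17-like after an Arabidopsis enzyme known for roles in light signalling and in drought and salt responses. LOC101255298 stood at 293, 231 and 289 FPKM at 0 h, at 58.9, 78.8 and 91.5 at 2 h and at 34.7, 42.5 and 48.1 at 8 h in Micro-TOM-EX, and at 251, 242 and 231 FPKM, 89.99, 65.1 and 68.2, and 48.3, 36.3 and 37.4 in Micro-TOM. No library of 2 h or 8 h came near those of 0 h. At 8 h its fall on this scale was the largest of the family in both materials (-2.67 ± 0.17 in Micro-TOM-EX, -2.55 ± 0.17 in Micro-TOM, limma adjusted p = 1.8e-09 and 3e-09). The neighbour LOC101250402 was at 1.32 to 1.86 FPKM at 0 h and at most 0.12 later in Micro-TOM-EX, and at 0.94 to 1.65 FPKM and at most 0.19 in Micro-TOM, and it fell at both hours in both materials. By ratio of means its 8 h fall was larger, to 0.025 of 0 h in Micro-TOM-EX and 0.016 in Micro-TOM, though on few fragments. For LOC101255298 these ratios were 0.154 and 0.168. LOC101250402 reached 1 FPKM at 0 h alone, so the level rule favoured its fall in advance. Of the other tau genes, LOC101264661 (U8) rose at 8 h by 1.37 in Micro-TOM-EX and 1.49 in Micro-TOM (adjusted p = 1.2e-05 and 4.6e-06). LOC101266488 (U25-like), at 0.45 to 1.99 FPKM throughout, passed in no comparison.

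LOC101253468 (chromosome 12, 64641287 to 64643760), of no stated class, had the largest fall at 2 h on the log2(FPKM + 1) scale. It was at 74.3, 100 and 78.0 FPKM at 0 h, 16.4, 10.4 and 10.9 at 2 h and 30.2, 27.3 and 31.6 at 8 h in Micro-TOM-EX, and at 67.5, 77.7 and 61.7 FPKM, 12.5, 10.97 and 17.5, and 31.7, 27.7 and 26.6 in Micro-TOM. In each material the 3 hours did not overlap. The 2 h log2 change was -2.67 ± 0.18 in Micro-TOM-EX and -2.28 ± 0.18 in Micro-TOM (limma adjusted p = 2.3e-09 and 1.4e-08), and at 8 h it was higher than at 2 h by 1.21 and 1.04. By ratio of means the 2 h fall of the low gene LOC101253422 was larger (0.095 against 0.149 in Micro-TOM-EX, 0.069 against 0.198 in Micro-TOM). This low gene reached 1 FPKM at 0 h alone, so the level rule favoured its fall in advance. LOC101253422 (chromosome 9, 66668720 to 66670873), named after PARB, an auxin-regulated tobacco glutathione S-transferase, was at 2.24 to 6.22 FPKM at 0 h and at most 0.59 later in Micro-TOM-EX, and at 3.73 to 4.60 FPKM and at most 0.71 later in Micro-TOM. Its model lies within another on the same strand, LOC101258897, an uncharacterized gene at 8.28 to 9.67, 0.54 to 0.91 and 1.85 to 3.74 FPKM at 0, 2 and 8 h in Micro-TOM-EX and 7.28 to 14.8, 1.09 to 1.36 and 2.88 to 5.69 FPKM in Micro-TOM, so reads may be shared. LOC101264963 of the chromosome 9 run (4893312 to 4894866) also fell at both hours in both materials, and its 0 h libraries were at 3.56 to 5.74 FPKM. Its fall at 8 h in Micro-TOM (-0.53, adjusted p = 0.013) did not pass without MT0r1 (0.063) or MT8r2 (0.057).

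There were 3 genes lower at 2 h and higher at 8 h than at 0 h in both materials. They were LOC543836 and LOC101244013 of the chromosome 7 run and LOC101258000 of chromosome 1 (80516314 to 80517530). The share of all genes with this course was not counted, so it is not shown to be particular to the family. Of all genes tested, 49.2% were lower at 2 h than at 0 h in Micro-TOM-EX and 47.5% in Micro-TOM. LOC543836 was at 156, 157 and 131 FPKM at 0 h, 41.5, 50.2 and 47.0 at 2 h and 560, 517 and 653 at 8 h in Micro-TOM-EX, and at 160, 102 and 130 FPKM, 75.5, 65.2 and 91.9, and 448, 567 and 544 in Micro-TOM. The 3 hours did not overlap in either material. Its 8 h rise against 2 h was the largest of the family on the log2(FPKM + 1) scale, 3.61 ± 0.17 in Micro-TOM-EX and 2.74 ± 0.17 in Micro-TOM (limma adjusted p = 8.3e-11 and 1.4e-09). Its fall at 2 h was -1.66 in Micro-TOM-EX (2.1e-07), while that in Micro-TOM, -0.74 (0.00086), no longer passed after rescaling (-0.38, 0.062).

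LOC101244013, on the minus strand at 64300762 to 64302388, was at 52.4, 52.8 and 58.2 FPKM at 0 h, 23.1, 14.2 and 18.7 at 2 h and 103, 77.7 and 116 at 8 h in Micro-TOM-EX, and at 51.9, 52.4 and 47.4 FPKM, 14.4, 13.5 and 15.7, and 89.7, 95.2 and 98.6 in Micro-TOM. Its libraries also separated by hour, with log2 changes at 8 h against 2 h of 2.35 ± 0.15 in Micro-TOM-EX and 2.62 ± 0.15 in Micro-TOM (limma adjusted p = 2.8e-09 and 9e-10). LOC101258000 was at 0.17 to 0.94 FPKM at 2 h and 8.19 to 14.2 at 8 h in Micro-TOM-EX, and at 0.77 to 2.01 and 4.59 to 8.94 FPKM in Micro-TOM. Its rise at 8 h against 0 h in Micro-TOM (0.84, adjusted p = 0.011) did not pass without MT8r1 (0.06).

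Within the chromosome 7 run, neighbouring genes therefore took different courses. Of its 8 members, 4 rose and 2 fell at 2 h in Micro-TOM-EX and 5 rose and 2 fell in Micro-TOM, and at 8 h 7 rose and 1 fell in each, beside the shares of all genes given above for these hours. LOC101245181 and LOC101244300 of this run had no library of 0 h at 1 FPKM, so the level rule favoured their rises in advance. BI-GST/GPX (64299677 to 64300623), a tomato glutathione S-transferase with peroxidase activity first studied for suppressing Bax-induced death in yeast, was at 9.60, 19.4 and 9.39 FPKM at 0 h, 49.7, 84.2 and 45.7 at 2 h and 46.5, 71.2 and 102 at 8 h in Micro-TOM-EX. In Micro-TOM it was at 10, 8.28 and 6.43 FPKM at 0 h, 114, 158 and 266 at 2 h and 54.7, 59.2 and 47.0 at 8 h. In Micro-TOM the 2 h libraries stood above those of 8 h without overlap, and in Micro-TOM-EX the 2 later hours overlapped. LOC101245181 (64296532 to 64298284) was at 0.06 to 0.53 FPKM at 0 h, 2.59 to 9.66 at 2 h and 4.04 to 12.9 at 8 h in Micro-TOM-EX, and at 0 to 0.23, 6.35 to 12.6 and 3.89 to 8.59 FPKM in Micro-TOM. The exception at 8 h was LOC101244597 (64293338 to 64295067), which was at or below 0.25 FPKM in all 8 h libraries and at 0.65 to 2.43 FPKM in those of 0 h.

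In the chromosome 9 run, 9 of the 11 members rose and 1 fell at 2 h against 0 h in each material, where 26.7% of all genes tested rose in Micro-TOM-EX and 27.5% in Micro-TOM. At 8 h against 0 h 6 rose and 4 fell in each material (35.5% and 35.8% of all genes in Micro-TOM-EX, 37.0% and 33.6% in Micro-TOM). At 8 h against 2 h 2 rose and 6 fell in Micro-TOM-EX and 3 rose and 6 fell in Micro-TOM, where 23.7% of all genes fell in each. LOC101267638, LOC101267339, LOC101266149 and LOC101266443 of this run had no library of 0 h at 1 FPKM, so the level rule favoured rises from 0 h in them. LOC101268500 (4810020 to 4811009) was at 44.5, 34.98 and 43.0 FPKM at 0 h, 75.1, 53.9 and 75.9 at 2 h and 7.98, 10.5 and 15.6 at 8 h in Micro-TOM-EX, and at 32.5, 36.2 and 34.5 FPKM, 75.8, 65.1 and 64.8, and 8.81, 6.26 and 7.31 in Micro-TOM. Its hours did not overlap in either material. On the log2(FPKM + 1) scale its fall at 8 h against 2 h was the largest of the family (-2.52 ± 0.19 in Micro-TOM-EX, -3.05 ± 0.19 in Micro-TOM, limma adjusted p = 1.5e-08 and 1.9e-09). By ratio of means LOC101266443, at 1.22 FPKM or less, fell further (0.109 against 0.167 in Micro-TOM-EX, 0 against 0.109 in Micro-TOM). It reached 1 FPKM at 2 h alone, so the level rule favoured its fall from 2 h in advance. That fall is among those counted above at 8 h against 2 h in both materials.

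LOC100134894 (4868860 to 4870138) was at 44.0, 39.4 and 56.5 FPKM at 0 h, 106, 136 and 143 at 2 h and 28.6, 24.2 and 33.2 at 8 h in Micro-TOM-EX, and at 42.6, 30.4 and 35.1 FPKM, 68.7, 98.0 and 83.3, and 24.2, 8.74 and 20.4 in Micro-TOM. It also peaked at 2 h and ended below its 0 h libraries, although the 8 h fall in Micro-TOM-EX (-0.68, limma adjusted p = 0.036) did not pass without EX0r1 (0.058), EX0r3 (0.13), EX8r1 (0.069) or EX8r2 (0.12). LOC101265571 (4866168 to 4867657) was at 14.8, 16.8 and 16.0 FPKM at 0 h, 182, 158 and 187 at 2 h and 50.3, 69.3 and 157 at 8 h in Micro-TOM-EX. In Micro-TOM it was at 16.4, 15.2 and 17.7 FPKM at 0 h, 103, 176 and 192 at 2 h and 79.0, 50.9 and 69.99 at 8 h. Its log2 rise at 2 h was 3.39 ± 0.31 in Micro-TOM-EX and 3.13 ± 0.31 in Micro-TOM (adjusted p = 7e-08 and 1.9e-07). LOC101267638 (4826834 to 4827931) had its highest mean at 8 h. In Micro-TOM-EX it was at or below 0.13 FPKM at 0 h, at 1.06, 0.71 and 0.47 at 2 h and at 0.79, 5.48 and 9.62 at 8 h, and in Micro-TOM at or below 0.12 FPKM at 0 h, at 1.75, 1.2 and 2.64 at 2 h and at 7.92, 4.83 and 6.17 at 8 h. The 8 h libraries lay above those of 2 h in Micro-TOM and overlapped them in Micro-TOM-EX, where the call at 8 h against 2 h (1.52, adjusted p = 0.0051) was lost in a fit of the compared groups alone (0.062).

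Summed over its 11 members, the chromosome 9 run was at 265 ± 29.9 FPKM at 0 h, 702 ± 49.6 at 2 h and 403 ± 205 at 8 h in Micro-TOM-EX, and at 250 ± 11.7, 570 ± 82.1 and 305 ± 31.3 FPKM in Micro-TOM. Its 8 h libraries in Micro-TOM-EX lay between 251 and 636 FPKM, of which EX8r3 was the highest. The 8 members of chromosome 7 summed to 226 ± 17.3, 146 ± 25.7 and 805 ± 120 FPKM at 0, 2 and 8 h in Micro-TOM-EX, and to 198 ± 28.9, 320 ± 106 and 718 ± 76.0 FPKM in Micro-TOM. At 2 h the chromosome 7 sums of the materials did not overlap (131 to 176 FPKM in Micro-TOM-EX, 239 to 440 in Micro-TOM).

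Over the whole family, 14 genes were higher and 11 lower at 8 h than at 2 h in Micro-TOM-EX, against 45.3% higher and 23.7% lower of all genes tested, and 14 were higher and 13 lower in Micro-TOM, against 46.0% and 23.7%. LOC101266443 reached 1 FPKM at 2 h alone and LOC101252525 at 8 h alone. The level rule therefore favoured a fall in the former and a rise in the latter here. All genes had a median log2 change of 0.28 and 0.30 in this comparison. After rescaling, which brought these to -0.02 and -0.03, the split turned to 11 higher and 14 lower in Micro-TOM-EX (32.4% and 34.1% of all genes) and 9 higher and 14 lower in Micro-TOM (32.1% and 34.8%). LOC101266972 (chromosome 9, 61196649 to 61198436), among the 3 largest rises here in Micro-TOM-EX, was at 0.20, 0.27 and 0.27 FPKM at 2 h and 5.97, 7.86 and 3.42 at 8 h in Micro-TOM-EX, and at 0.78, 0.43 and 0.36 FPKM and 5.39, 1.61 and 5.06 in Micro-TOM. The 8 h libraries lay above those of 2 h in both materials. By ratio of means this low gene rose more than LOC543836 (23.3 against 12.5 times in Micro-TOM-EX, 7.68 against 6.70 in Micro-TOM).

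The remaining members are given by their ranges. LOC101265853 and LOC101266750 of the chromosome 9 run were well expressed at all hours. LOC101265853 was at 48.5 to 63.8 FPKM at 0 h, 73.1 to 119 at 2 h and 99.3 to 279 at 8 h in Micro-TOM-EX, and at 46.7 to 90.6, 111 to 136 and 107 to 159 FPKM in Micro-TOM. It rose at both hours in both materials, although the 2 h call in Micro-TOM-EX (limma adjusted p = 0.036) was lost without EX0r1 (0.11), EX0r2 (0.053), EX2r1 (0.11) or EX2r3 (0.11). LOC101266750 was at 74.7 to 107 FPKM at 0 h, 150 to 191 at 2 h and 39.4 to 90.4 at 8 h in Micro-TOM-EX, and at 80.8 to 98.8, 94.6 to 125 and 31.8 to 46.1 FPKM in Micro-TOM. It fell at 8 h against 2 h in both materials (log2 -1.64 and -1.61, adjusted p = 2e-05 and 2.3e-05).

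LOC101266084 (chromosome 10, 64311726 to 64313290) was at 0.74 to 1.09 FPKM at 0 h, 7.90 to 13.8 at 2 h and 2.22 to 10.1 at 8 h in Micro-TOM-EX, and at 0.14 to 0.30, 3.69 to 8.75 and 1.90 to 3.87 FPKM in Micro-TOM, and it rose at both hours in both. The second lambda gene, LOC101262552, was at 3.67 to 5.21, 7.91 to 18.2 and 6.15 to 9.26 FPKM at 0, 2 and 8 h in Micro-TOM-EX, and at 5 to 6.21, 7.91 to 11.49 and 6.02 to 10.9 FPKM in Micro-TOM. These ranges were much lower than those of LOC101253845, the other lambda gene. In 4 genes levels stayed low throughout, with highest values of 5.13 FPKM in LOC101244300 (named after parA, another auxin-regulated tobacco gene), 3.99 in LOC101256677, 1.35 in the zeta gene LOC101252525 and 1.22 in LOC101266443. LOC101266443 reached 1 FPKM at 2 h alone, in all 3 Micro-TOM-EX libraries and 1 of Micro-TOM.

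The comparison of the materials asked where Micro-TOM-EX leaves differed from Micro-TOM leaves at the same hour. At 0 h no family member passed, against 4.01% of all genes tested, and 1 had an unadjusted p below 0.05. At 8 h none passed, against 1.67% of all genes, and 6 had an unadjusted p below 0.05. The unadjusted 95% intervals of the 8 h differences lay between -1.45 and 1.48 over the 39 genes, so differences of that size are not shown to be absent. For the 3 most abundant genes they were narrower, from -0.36 to 0.38 for LOC101256384, -0.35 to 0.32 for LOC101248052 and -0.20 to 0.50 for LOC543836. In the authors' deposited table no member had q under 0.05 at 0 h, and LOC101265520 alone had it at 8 h (log2 fold change 0.63, q = 0.0439).

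At 2 h 3 members were higher and 5 lower in Micro-TOM-EX than in Micro-TOM, which is 7.69% and 12.8% of the family against 6.22% and 7.48% of all genes tested. The members that were lower lay in the chromosome 7 run, 4 of its 8, with the phi gene LOC101265881 as the fifth. The members that were higher lay in the chromosome 9 run, 3 of its 11.

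BI-GST/GPX was at 49.7, 84.2 and 45.7 FPKM in Micro-TOM-EX at 2 h, against 114, 158 and 266 FPKM in Micro-TOM (log2 difference -1.53 ± 0.34, limma adjusted p = 0.0077). LOC101244886 was at 7.80, 11.53 and 8.93 FPKM in Micro-TOM-EX, against 17.7, 22.3 and 38.4 FPKM in Micro-TOM (-1.32 ± 0.23, 0.0015). LOC101245473, named after parC, an auxin-regulated tobacco gene, was at 3.49, 3.97 and 5.09 FPKM in Micro-TOM-EX, against 9.66, 11.51 and 11.8 FPKM in Micro-TOM (-1.22 ± 0.23, 0.0023). In these 3 genes every Micro-TOM-EX library lay below every Micro-TOM library, and so it was in LOC543836, at 41.5, 50.2 and 47.0 FPKM in Micro-TOM-EX against 75.5, 65.2 and 91.9 FPKM in Micro-TOM (-0.72 ± 0.17, adjusted p = 0.0092). The reads that LOC543836 may share with LOC101244886 and LOC101245473 touch 3 of these 4 results.

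LOC101265881 (F11, chromosome 2, 45340838 to 45342447), the phi gene, whose Arabidopsis namesake acts in glucosinolate synthesis, was at 1.18, 1.24 and 0.52 FPKM in Micro-TOM-EX at 2 h, against 6.09, 3.54 and 6.07 FPKM in Micro-TOM (-1.65 ± 0.20, limma adjusted p = 6.6e-05). LOC101267339 (chromosome 9, 4835940 to 4837018) was at 31.7, 24.8 and 23.6 FPKM in Micro-TOM-EX, against 6.95, 10.4 and 10.2 FPKM in Micro-TOM (1.45 ± 0.25, 0.0011). Neither gene's libraries overlapped between the materials. The calls of the remaining 2 genes of the chromosome 9 run were weaker. LOC101266149 was at 12.5, 7.22 and 8.72 FPKM in Micro-TOM-EX, against 2.64, 4.23 and 3.59 FPKM in Micro-TOM (1.21 ± 0.36, 0.037), and its adjusted p was 0.052 to 0.15 without any 1 of MT2r1, MT2r2, MT2r3, EX2r1 or EX2r3. LOC101264963 was at 3.86, 2.19 and 2.93 FPKM in Micro-TOM-EX, against 1.86, 1.73 and 1.47 FPKM in Micro-TOM (0.55 ± 0.18, 0.047). Its adjusted p was 0.051 to 0.14 without any 1 of EX0r1, EX0r2, EX0r3, EX2r1, EX2r3, EX8r1, MT0r3, MT2r1, MT2r2, MT2r3, MT8r1, MT8r2 or MT8r3.

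**Figure D3:**
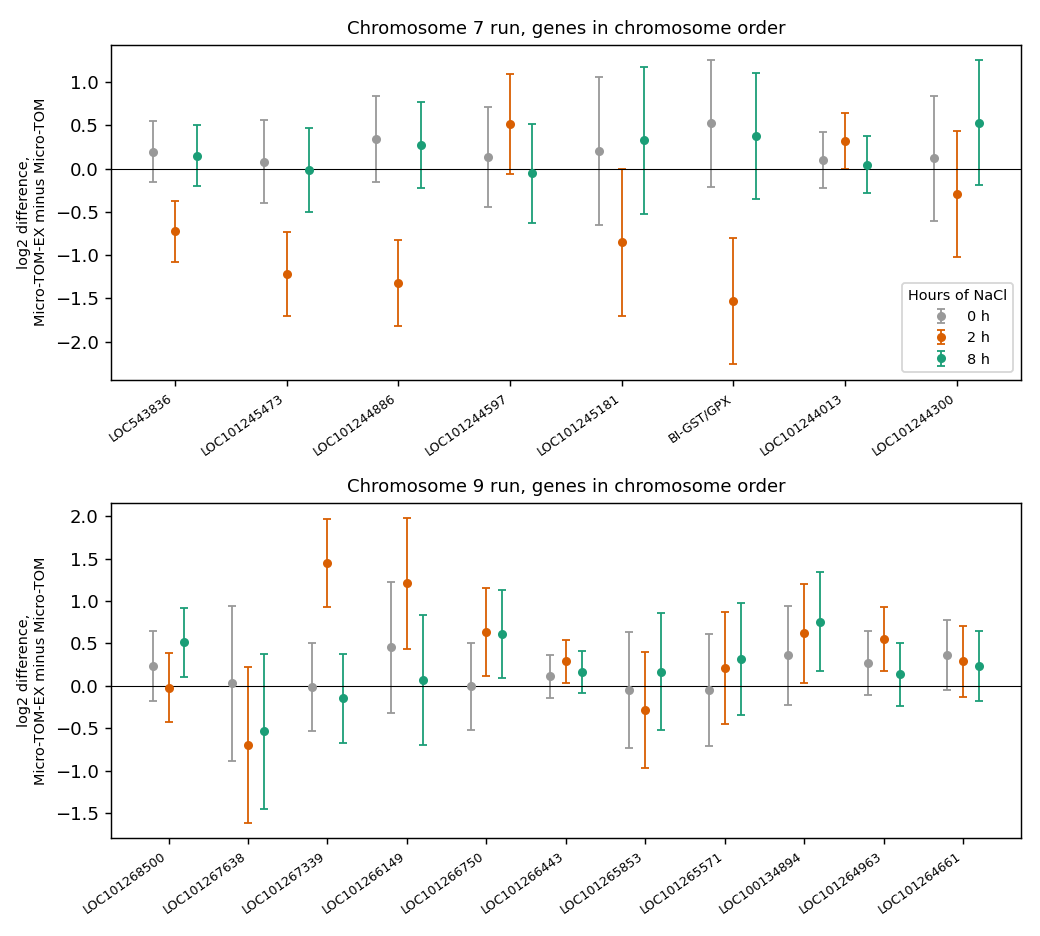
Log2 difference between Micro-TOM-EX and Micro-TOM at each hour, with unadjusted 95% intervals, for the 8 genes of the chromosome 7 run and the 11 of the chromosome 9 run, in chromosomal order. At 2 h 4 genes of the chromosome 7 run lie below 0 with intervals clear of it, and LOC101267339 of the chromosome 9 run lies highest at 1.45.

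Whether the 2 h response itself differed between the materials was tested as the change from 0 h in Micro-TOM-EX minus that in Micro-TOM. In 1 member it was higher and in 5 lower, or 2.56% and 12.8% of the family, against 2.74% and 3.74% of all genes tested. For the 8 h response no member passed, against 1.35% of all genes, and none had an unadjusted p below 0.05. LOC101267339 gave the positive difference. It was at 0.33, 0.13 and 0.26 FPKM at 0 h in Micro-TOM-EX and 0.20, 0.52 and 0.07 FPKM in Micro-TOM, and its 2 h log2 rise was 4.47 in Micro-TOM-EX and 3.01 in Micro-TOM, a difference of 1.46 ± 0.35 (limma adjusted p = 0.019).

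The 5 negative differences were those of BI-GST/GPX (-2.05 ± 0.49, limma adjusted p = 0.019), LOC101244886 (-1.67 ± 0.33, 0.0067), LOC101265881 (-1.45 ± 0.29, 0.0067), LOC101245473 (-1.30 ± 0.32, 0.024) and LOC543836 (-0.92 ± 0.24, 0.029). BI-GST/GPX rose by a log2 of 2.16 in Micro-TOM-EX and 4.22 in Micro-TOM, and LOC101244886 by 0.80 and 2.46. The phi gene LOC101265881 rose by 0.55 in Micro-TOM-EX and 2.00 in Micro-TOM. The rise in Micro-TOM-EX did not pass without EX0r1 (0.06), EX2r1 (0.073) or EX2r2 (0.084). LOC101245473 rose by 1.52 in Micro-TOM, and its change of 0.22 in Micro-TOM-EX did not pass (adjusted p = 0.4), while LOC543836 changed by -1.66 and -0.74.

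Of these 6 differences, 4 rested on a margin that 1 library could end. The difference of LOC543836 had an adjusted p of 0.051 to 0.076 without any 1 of EX0r1, EX0r2, EX2r1, EX2r3, MT0r2, MT0r3, MT2r1 or MT2r3. That of LOC101245473 had 0.051 to 0.064 without any 1 of EX0r1, MT0r3, MT2r2 or MT2r3. That of BI-GST/GPX had 0.059 without EX2r3 and 0.051 without MT0r3, and that of LOC101267339 had 0.061 without MT2r1. The differences of LOC101244886 and LOC101265881 passed without each of the 18 libraries in turn.

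**Figure D4:**
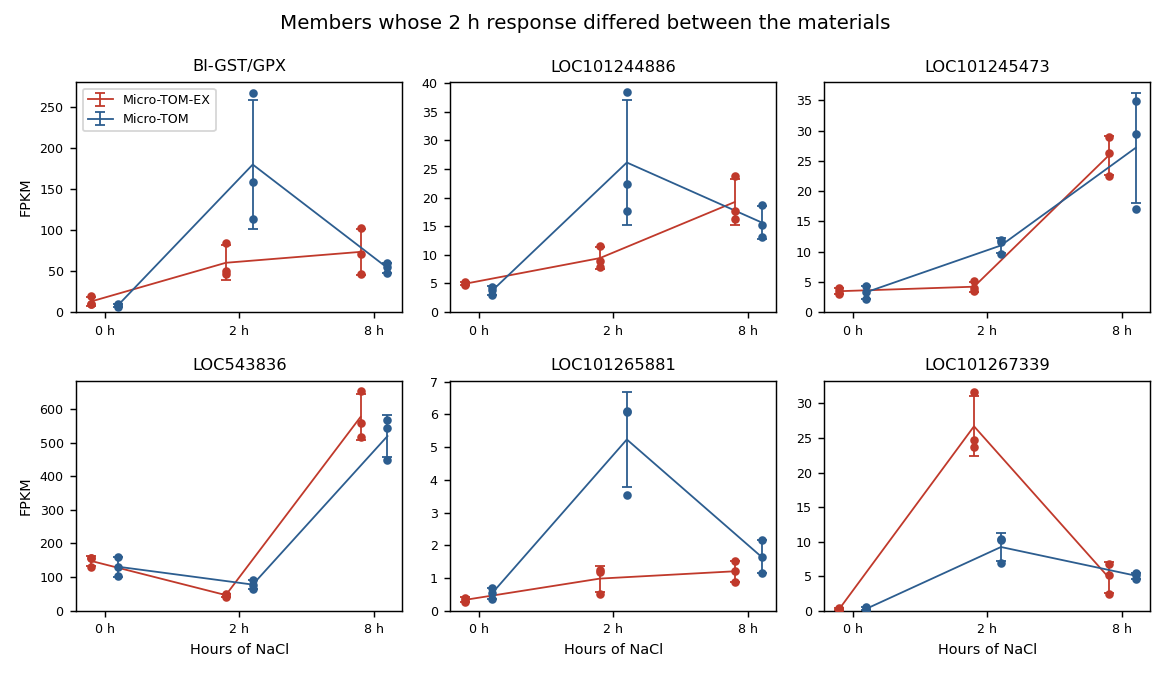
FPKM at 0, 2 and 8 h (evenly spaced) of the 6 genes whose 2 h response differed between Micro-TOM-EX (red) and Micro-TOM (blue). Points are libraries, lines join group means and bars are SD (n = 3). At 2 h the materials do not overlap in any of the 6 genes, with Micro-TOM-EX above Micro-TOM in LOC101267339 and below it in the other 5. The genes were picked by a test that used these libraries, so this separation adds no support.

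Other genes of glutathione metabolism were counted from lists by description. The 2 genes of glutathione synthesis both fell at 2 h in both materials, where 49.2% of all genes fell in Micro-TOM-EX and 47.5% in Micro-TOM. After rescaling, 1 still passed in Micro-TOM-EX and 2 in Micro-TOM, where 37.5% and 36.8% of all genes were lower. GSH1, glutamate-cysteine ligase, was at 45.5 ± 2.80, 16.1 ± 3.76 and 96.8 ± 31.0 FPKM at 0, 2 and 8 h in Micro-TOM-EX and at 42.6 ± 1.47, 18.9 ± 4.55 and 92.4 ± 17.6 FPKM in Micro-TOM, with log2 changes at 8 h of 1.03 and 1.08 (limma adjusted p = 0.00055 and 0.00035). GSH2, glutathione synthetase, was lower at 8 h, at 9.72 ± 0.871 FPKM in Micro-TOM-EX and 11.4 ± 0.484 in Micro-TOM, against 28.2 ± 1.05 and 30.9 ± 2.17 FPKM at 0 h. Glutathione reductase LOC100301935, which regenerates glutathione, rose at 8 h by 2.68 in Micro-TOM-EX and 2.70 in Micro-TOM (3.9e-09 and 3.5e-09). DHAR1 and DHAR2, dehydroascorbate reductases of the same superfamily that the descriptions did not name as transferases, both fell at 8 h, DHAR1 by 1.57 in Micro-TOM-EX and 1.31 in Micro-TOM (1.6e-05 and 9.7e-05).

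The other lists moved in both directions. At 2 h their counts are to be set against 26.7% higher and 49.2% lower of all genes in Micro-TOM-EX and 27.5% and 47.5% in Micro-TOM, and at 8 h against 35.5% and 35.8%, and 37.0% and 33.6%. Counts at 2 h after rescaling are to be set against 36.1% higher and 37.5% lower in Micro-TOM-EX and 35.6% and 36.8% in Micro-TOM. Of 6 glutathione peroxidases, 1 rose and 3 fell at 2 h in Micro-TOM-EX and 1 rose and 2 fell in Micro-TOM. After rescaling these 2 h counts were 1 higher and 1 lower in Micro-TOM-EX and 2 higher and 2 lower in Micro-TOM. At 8 h 4 rose and 2 fell in Micro-TOM-EX and 4 rose and 1 fell in Micro-TOM. GPXle-1 reached the highest level of these, at 69.3 ± 24.8, 426 ± 86.8 and 1129 ± 32.6 FPKM at 0, 2 and 8 h in Micro-TOM-EX and 65.5 ± 10.2, 840.0 ± 31.0 and 1098 ± 73.8 FPKM in Micro-TOM. Of 8 ascorbate peroxidases, 3 rose and 3 fell at 2 h in Micro-TOM-EX and 3 rose and 2 fell in Micro-TOM (3 higher and 2 lower, and 4 higher and 2 lower, after rescaling). At 8 h 4 rose and 2 fell in each. Of 5 dehydroascorbate and monodehydroascorbate reductases, which regenerate ascorbate, 2 rose and 2 fell at 8 h in each material. At 2 h 1 of these rose and 3 fell in Micro-TOM-EX and 1 rose and 2 fell in Micro-TOM (1 higher and 2 lower in each after rescaling). Of 6 glyoxalase genes, which clear methylglyoxal with glutathione, 3 rose and 2 fell at 8 h in each. At 2 h 2 glyoxalase genes rose and 4 fell in each. After rescaling these were 2 higher and 2 lower in Micro-TOM-EX and 2 higher and 3 lower in Micro-TOM. A list for gamma-glutamyl enzymes, which by its wording also took in other glutathione thioester hydrolases, had 3 rises and 2 falls among 9 genes at 8 h in Micro-TOM-EX and 5 rises and 2 falls in Micro-TOM. At 2 h it had 1 rise and 6 falls in Micro-TOM-EX and 1 rise and 5 falls in Micro-TOM. After rescaling its 2 h counts were 1 higher and 5 lower, and 2 higher and 3 lower.

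Glutaredoxins, small reductases that use glutathione, were tested in 35 genes, of which 8 rose and 10 fell at 2 h in Micro-TOM-EX and 7 rose and 11 fell in Micro-TOM. After rescaling the balance at 2 h turned, to 13 higher and 8 lower in Micro-TOM-EX and 12 higher and 6 lower in Micro-TOM. The balance of all genes shifted too. In Micro-TOM-EX it went from 26.7% higher and 49.2% lower to 36.1% and 37.5%, and in Micro-TOM from 27.5% and 47.5% to 35.6% and 36.8%. At 8 h 18 rose and 11 fell in Micro-TOM-EX and 16 rose and 12 fell in Micro-TOM. Transporters of the ABCC group, which carry glutathione conjugates into the vacuole, were tested in 11 genes, of which 5 rose and 5 fell at 2 h in Micro-TOM-EX and 5 rose and 3 fell in Micro-TOM. After rescaling 6 were higher and 2 lower in Micro-TOM-EX and 6 higher and 3 lower in Micro-TOM. TGA transcription factors, which bind the promoters of stress-induced glutathione S-transferase genes in Arabidopsis and tobacco, were tested in 12 genes. At 2 h 3 of them rose and 6 fell in Micro-TOM-EX and 4 rose and 4 fell in Micro-TOM. After rescaling 5 were higher and 4 lower at 2 h in each material. At 8 h 6 rose and 3 fell in each, before and after rescaling.

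Markers of other cell types and organs also moved with the hours. The summed level of 30 glandular trichome genes, 9 of them at the tested level, was 47.0 to 73.0 FPKM at 0 h, 47.5 to 65.1 at 2 h and 132 to 329 at 8 h in Micro-TOM-EX, and 37.3 to 46.2, 43.9 to 54.5 and 105 to 192 FPKM in Micro-TOM. That of 21 root genes, 12 at the tested level, was 88.1 to 95.1, 226 to 259 and 173 to 177 FPKM at 0, 2 and 8 h in Micro-TOM-EX, and 83.8 to 93.9, 243 to 289 and 161 to 173 FPKM in Micro-TOM. That of 16 guard cell genes, 7 at the tested level, was 158 to 187, 87.9 to 95.9 and 60.0 to 72.9 FPKM in Micro-TOM-EX, and 120 to 176, 72.2 to 82.2 and 62.1 to 88.1 FPKM in Micro-TOM. Sums of 18 phloem genes lay between 132 and 301 FPKM and those of 58 flower and anther genes between 661 and 1395 FPKM. Single genes of these lists went both ways. At 8 h 3 trichome genes rose and 2 fell in Micro-TOM-EX (35.5% and 35.8% of all genes), and 4 rose and 2 fell in Micro-TOM (37% and 33.6%). At 2 h 5 root genes rose and 4 fell in Micro-TOM-EX (26.7% and 49.2% of all genes), and 6 rose and 4 fell in Micro-TOM (27.5% and 47.5%). At 8 h 10 root genes rose and 2 fell in Micro-TOM-EX, and 9 rose and 2 fell in Micro-TOM. Guard cell genes had 3 rises and 3 falls at 2 h in Micro-TOM-EX and 1 rise and 3 falls in Micro-TOM. At 8 h they had 1 rise and 3 falls in each material. No listed gene was at 0 in all libraries, and the part of these markers in the results was not tested.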

How the data were processed

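Leaf RNA of 18 tomato libraries was read on a BGI500 instrument after Trizol extraction, per the labels' protocols. The authors deposited 1 table of 23808 genes with FPKM values rounded to 2 decimals, and the log2 fold change and q-value of their own comparisons. DESeq2 1.4.5, RSEM 1.2.12, Bowtie2 2.2.5 and HISAT2 2.0.4 are named, per the submitters' processing notes, without their roles. No counts were used here. The 18 further columns of single-sample values were identical to those used. Symbols, descriptions and positions are those of the deposited table, and chromosome numbers came from 21978 gene IDs matched to a RefSeq table of assembly SLM_r2.1.

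Genes at 1 FPKM or more in 3 libraries (18402) were fitted in limma 3.58.1 (R 4.3.3) on log2(FPKM + 1), in 1 model over 6 groups with empirical Bayes moderation and a mean trend. This scale understates changes of low genes. p-values were adjusted by Benjamini and Hochberg in each of 11 comparisons, with 0.05 as the threshold. The median SE of a log2 change was 0.169, and 0.239 for differences between responses. In simulated data of 18402 genes with 100 2-fold and 100 4-fold changes, 74% and 99% were found between the materials at 2 h, with 7 false calls, and 39% and 93% for the difference in the 2 h response, with 6. The changes were placed only in genes with a mean log2(FPKM + 1) above 2, and the noise was normally distributed. The rates therefore do not cover family members of lower mean, such as LOC101265881. Depth was found by a search from 12 to 30 M fragments for which values were whole reads (94.6% to 96.6% of values within 0.15). Depth limits low genes through counting error alone.

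Values per library are given for members picked by a rule. These were the 3 largest rises and falls between hours on the log2(FPKM + 1) scale and members called between materials (at most 6 each). The 5 highest means and the highest member of each class were added. Others are named outside this rule. Members and lists were chosen with earlier results of these data known. Libraries of 1 number deviated together only between the materials at 0 h (correlations 0.475, 0.439 and 0.127), where the replicate block also called 0 members, so libraries were treated as unpaired. Alternatives were median-ratio scaling, other filters, a pseudocount of 0.1, fits of the compared groups alone, replicate blocks, left-out libraries and the authors' deposited q-values. Sequences, promoter motifs and protein identity were not analysed here.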

Additional observations from a re-analysis of the deposited data

Results flagged for a closer look

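In 6 genes the 2 h response differed between the materials by limma's test of the difference itself, (Micro-TOM-EX 2 h - 0 h) minus (Micro-TOM 2 h - 0 h) on the log2 scale. The difference was -2.05 for BI-GST/GPX, -1.67 for LOC101244886, -1.45 for LOC101265881, -1.3 for LOC101245473, -0.92 for LOC543836 and 1.46 for LOC101267339. In each gene all 3 Micro-TOM-EX libraries of 2 h lay on 1 side of the 3 Micro-TOM libraries. The genes were picked by the test of the difference, which used these libraries, so their separation adds no support. None of the 6 passed the same test for the 8 h response. Of the 6, 4 lie in the chromosome 7 run and 3 of those 4 have gene models that overlap on 1 strand.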

How the results depend on the processing

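Over the 11 comparisons 204 calls of family members were made, of which 41 were lost under at least 1 alternative, 33 of them without 1 library, and 0 reversed. Among the 48 calls picked by the naming rule, 4 were lost, all in the difference of the 2 h response. At 8 h against 2 h in Micro-TOM 14 members were higher, but 9 after median-ratio scaling and 9 by the authors' deposited q-values. Between the materials at 2 h 3 were higher, but 5 by the authors' q-values and 1 to 4 with 1 library left out, the low count without EX2r1, EX2r3, MT2r1 or MT2r2. At 8 h the authors' q-values called 1. For the difference of the 2 h response, 6 were called, 1 higher and 5 lower. The number 2 libraries of 0 h had the fewest genes at 0 FPKM of their groups (2387 in EX0r2, 2750 in MT0r2). Without both of these libraries 3 were called, 0 higher and 3 lower. With 1 library left out 3 to 6 were called, 0 to 1 higher and 2 to 5 lower. The single rise, LOC101267339, was not called with a pseudocount of 0.1 (adjusted p = 0.18) or with the replicate block within each hour (0.056), which left 0 higher and 5 lower. The replicate block over all libraries called 6 there and 9 between the materials at 2 h, and moved no other count by over 1.5 times. The causes were not tested. Replicate numbers did not pair libraries beyond 0 h. Depth limits genes below 1 FPKM, which rest on few fragments.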
